A study of Homo sapiens with 16 samples.

Results

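Endoplasmic reticulum (ER) chaperones and genes of the unfolded protein response were followed in MCF10A cells over 45 hours of treatment with the HER2 kinase inhibitor CP724,714. The genes were HSPA5, HSP90B1, DNAJB9, DNAJC3, SDF2L1, HERPUD1, XBP1, PDIA4, CALR and CRELD2, taken by their symbol in the deposited table of intensities. These 10 genes are 10 of the 18190 symbols of the table, and each had 1 of its 20589 rows. All 10 rows were above background on all 16 arrays and were among the 11957 rows tested.

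MCF-10A is a nontransformed human breast epithelial cell line, grown here in medium with insulin, hydrocortisone and epidermal growth factor. Parallel cultures received CP724,714 at 1 µM, and RNA was taken every 3 hours from 0 to 45 hours, and each of the 16 samples was read on its own Illumina human Ref8v2 array. Cells of 0 hours were untreated and all others were treated. No time point had a replicate, no series without inhibitor was analysed here, and the medium was changed as treatment began, so the inhibitor, the fresh medium and time in culture cannot be told apart.

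The ER is where secreted and membrane proteins are folded, glycosylated and checked. When folding falls behind, the chaperone BiP, the product of HSPA5, leaves the membrane sensors IRE1, PERK and ATF6, and the unfolded protein response begins. IRE1 splices the XBP1 messenger RNA, PERK slows translation and favours ATF4, and cleaved ATF6 enters the nucleus, and XBP1 and ATF6 act on ER stress response elements (ERSE) in chaperone promoters. An array probe reads the amount of a transcript and not the splicing of XBP1, the cleavage of ATF6 or any protein.

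The promoters of 7 of the 10 genes held a full element in the RefSeq windows (GRCh38.p14) of 250 bases before to 50 bases after each gene start. The elements searched, on both strands, were ERSE (CCAAT, any 9 bases, CCACG) and ERSE-II (ATTGG, any 1 base, CCACG), and the core CCACG is part of both. The sites are shown because they are the elements through which ATF6 and XBP1 are known to act, with the fixed letters of the element in capitals and the spacer in lower case. Each is written 5′ to 3′ on the strand given, with its place in GRCh38.p14.
HSPA5, ERSE, chr9:125241391-125241409, minus strand: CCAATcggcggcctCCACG
HSP90B1, ERSE, chr12:103930216-103930234, plus strand: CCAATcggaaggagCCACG
HSP90B1, ERSE, chr12:103930321-103930339, minus strand: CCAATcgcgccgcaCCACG
XBP1, ERSE, chr22:28800603-28800621, minus strand: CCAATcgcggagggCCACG
CALR, ERSE, chr19:12938384-12938402, minus strand: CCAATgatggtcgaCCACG
CRELD2, ERSE, chr22:49918554-49918572, minus strand: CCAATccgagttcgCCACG
SDF2L1, ERSE-II, chr22:21642114-21642124, minus strand: ATTGGtCCACG
HERPUD1, ERSE-II, chr16:56932025-56932035, plus strand: ATTGGgCCACG

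Over the whole RefSeq table ERSE was in 27 of 35116 windows (0.0769%) and ERSE-II in 19 (0.0541%). The core was in 38.1% of all windows and in all 12 windows of the 10 genes, of which XBP1 and PDIA4 have 2 each. The XBP1 element lay in 1 of its 2 windows. The letters of neither element were found in the windows of DNAJB9, DNAJC3 or PDIA4, which says nothing about sequence outside these windows. In HSPA5, XBP1 and CRELD2 the element ended 48, 34 and 62 bases before the gene start. A match is a description of the letters, and no binding was measured.

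All 10 genes varied with time. A moderated F-test in limma on a smooth curve of time called all 10, beside 54.6% of all rows tested, with adjusted p from 1.19e-06 for SDF2L1 to 0.0254 for DNAJC3. Without the 45 hour array DNAJC3 was not called (adjusted p = 0.123). The span from the lowest to the highest array was widest in HERPUD1 (4.71-fold), DNAJB9 (3.83-fold) and XBP1 (3.41-fold), and narrowest in HSP90B1 (1.47-fold). The courses were not all of 1 kind. A straight line in time called 3 of the 10 genes, XBP1, CALR and PDIA4, beside 16.3% of all rows.

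**Figure D1:**
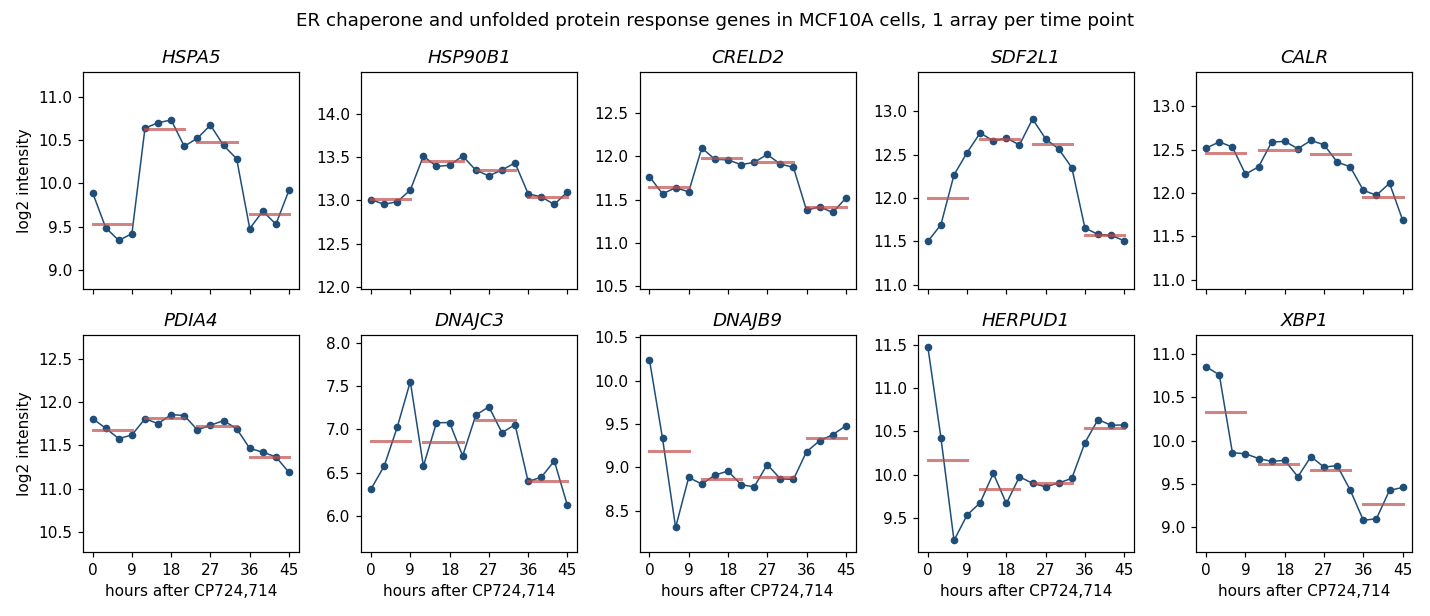
Normalized log2 intensity (y axis, each panel 2.5 log2 units high) against hours after the inhibitor (x axis) for the 10 genes, 1 point for each array. Red bars are means of 4 consecutive time points. HSPA5, HSP90B1, CRELD2 and SDF2L1 are high from 12 to 33 hours, with SDF2L1 already up at 6 and 9 hours. HERPUD1, DNAJB9 and XBP1 are highest at 0 hours.

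HSPA5, HSP90B1 and CRELD2 were high from 12 to 33 hours and low before and after. SDF2L1 was also high from 12 to 33 hours and low after, but it was already up before 12 hours. It read 12.53 at 9 hours, above its 12.35 at 33 hours. All 4 were higher at 12 to 21 hours than at 0 to 9 hours and lower at 36 to 45 hours than at 24 to 33 hours, a pair of calls met by 8.25% of all rows tested. HSPA5 encodes BiP, the ER member of the HSP70 family. Its log2 intensities were 9.89, 9.49, 9.34 and 9.42 at 0, 3, 6 and 9 hours. They were 10.64, 10.70, 10.73 and 10.43 from 12 to 21 hours, then 10.52, 10.67, 10.44 and 10.28 from 24 to 33 hours. They were 9.48, 9.68, 9.53 and 9.92 from 36 to 45 hours. The 8 arrays from 12 to 33 hours thus all lay above the other 8. The largest step up, from 9 to 12 hours, was 1.22 log2 units and the largest down, from 33 to 36 hours, was -0.81. Smaller steps of -0.23 and -0.15 came before that fall, from 27 to 30 and from 30 to 33 hours. On the deposited scale HSPA5 read 820 to 1046 in the first 4 arrays and 1562 to 2044 in the next 4.

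Between window means, HSPA5 rose by 1.09 log2 units at 12 to 21 hours (SE 0.13, 2.13-fold, adjusted p = 1.35e-05, limma), from 9.54 ± 0.25 to 10.62 ± 0.14 (SD, n = 4 time points). It fell by 0.83 at 36 to 45 hours (SE 0.13, adjusted p = 7.09e-05), and the last window was within the spread of the first (0.12, SE 0.13, adjusted p = 0.521). Windows are sets of consecutive time points and not replicates, so their SD and SE also hold the change within a window.

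HSP90B1, the ER paralogue of HSP90 also called GRP94, had the same order of windows at a smaller size. Its log2 intensity was 12.95 to 13.12 from 0 to 9 hours, 13.39 to 13.51 from 12 to 21 hours, 13.28 to 13.43 from 24 to 33 hours and 12.95 to 13.10 from 36 to 45 hours. The 4 windows gave 2 levels with no shared values, and the 33 hour array was still at 13.43. HSP90B1 rose by 0.44 (SE 0.05, adjusted p = 2.13e-05) and fell by 0.31 (SE 0.05, adjusted p = 0.00022).

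CRELD2, a secreted ER stress-inducible protein with disulfide isomerase activity, was at 11.57 to 11.77 in the first window, 11.90 to 12.10 in the second, 11.87 to 12.02 in the third and 11.35 to 11.52 in the last. It rose by 0.34 (SE 0.07, adjusted p = 0.000972) and then fell by 0.52 (SE 0.07, adjusted p = 1.1e-05). Its last window lay below its first (-0.22, SE 0.07, adjusted p = 0.0153). This last call was lost with median scaling between arrays (-0.11, adjusted p = 0.309) and in a fit of only the arrays compared (adjusted p = 0.0711).

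SDF2L1, a partner of ER chaperone complexes with BiP, began its rise earlier. It read 11.50, 11.69, 12.27 and 12.53 at 0, 3, 6 and 9 hours, and 12.61 to 12.75 from 12 to 21 hours. It was highest at 24 hours (12.91), had come down to 12.35 by 33 hours and was at 11.51 to 11.66 from 36 to 45 hours. SDF2L1 was thus already up at 6 and 9 hours against 0 and 3 hours (0.80, SE 0.11, adjusted p = 5.38e-05), when HSPA5, HSP90B1 and CRELD2 were not called. Their changes at that time were -0.31 (SE 0.15), 0.07 (SE 0.08) and -0.05 (SE 0.09). Without the 3 hour array the HSPA5 change was called as a fall (-0.51, adjusted p = 0.0286). The later fall of SDF2L1, by 1.05 (SE 0.16, adjusted p = 7.97e-05), was the largest called change of the 10 genes between 24 to 33 and 36 to 45 hours.

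CALR and PDIA4 had no called change before the last window and were lower in it. CALR encodes calreticulin, the soluble lectin chaperone that binds glycoproteins and calcium, and PDIA4 a protein disulfide isomerase. CALR was at 12.22 to 12.59 from 0 to 9 hours and at 12.30 to 12.60 from 12 to 21 hours. It lay at 12.30 to 12.61 from 24 to 33 hours, already down to 12.36 and 12.30 at 30 and 33 hours. From 36 to 45 hours it was at 11.69 to 12.11. PDIA4 was at 11.58 to 11.81, 11.75 to 11.86, 11.68 to 11.79 and 11.19 to 11.47 in the same windows. Both genes were lowest at 45 hours. Against 24 to 33 hours the last window fell by 0.50 in CALR (SE 0.10, adjusted p = 0.000937) and by 0.36 in PDIA4 (SE 0.07, adjusted p = 0.000591). Against 0 to 9 hours it fell by 0.51 in CALR (adjusted p = 0.00112) and by 0.32 in PDIA4 (adjusted p = 0.00242). The second call of PDIA4 was lost with median scaling (-0.19, adjusted p = 0.0629), under which PDIA4 was instead called higher at 12 to 21 hours (0.32, adjusted p = 0.0042).

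DNAJC3, which encodes the ER cochaperone p58IPK, was the dimmest of the rows, with deposited intensities of 203 to 367. Its log2 values were 6.31, 6.57, 7.02 and 7.55 at 0, 3, 6 and 9 hours and 6.58 at 12 hours. They then lay between 6.69 and 7.26 until 33 hours, and between 6.12 and 6.64 from 36 hours. The rise at 6 and 9 hours (0.84, SE 0.23, adjusted p = 0.0132) was not called without the 0 hour array (adjusted p = 0.0868), without the 9 hour array (adjusted p = 0.174) or in a fit of only the arrays compared (adjusted p = 0.0918). The fall after 33 hours (-0.71, SE 0.21, adjusted p = 0.0125) kept its call in the alternative fits that tested it. The stricter filter, detection p under 0.01 on at least 8 arrays, left DNAJC3 out, since it passed that limit on 4 arrays. Near the background the offset used here compresses changes.

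HERPUD1, DNAJB9 and XBP1 were highest in the untreated cells and fell within 6 hours. HERPUD1 encodes an ER membrane protein of the degradation machinery. Its log2 intensities were 11.48, 10.43, 9.24 and 9.53 at 0, 3, 6 and 9 hours, so each of the first 2 intervals brought a step of over 1 log2 unit. It then lay at 9.67 to 10.02 from 12 to 33 hours and at 10.37, 10.64, 10.57 and 10.57 from 36 to 45 hours. DNAJB9, which encodes the BiP cochaperone ERdj4, read 10.24, 9.33, 8.31 and 8.88 in the first 4 arrays. It stayed at 8.77 to 9.03 from 12 to 33 hours and was at 9.18, 9.30, 9.38 and 9.48 in the last 4. These courses had the same shape, and neither gene came back to its 0 hour level.

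At 6 and 9 hours against 0 and 3 hours HERPUD1 fell by 1.56 log2 units (SE 0.23, 2.96-fold, adjusted p = 0.000135) and DNAJB9 by 1.19 (SE 0.23, 2.29-fold, adjusted p = 0.00107). The call of DNAJB9 was lost in a fit of only the arrays compared (adjusted p = 0.0688). From 24 to 33 hours to the last window the values were 0.63 (SE 0.31, adjusted p = 0.12) in HERPUD1 and 0.45 (SE 0.26, adjusted p = 0.183) in DNAJB9, not called, although all 4 late arrays lay above all 4 earlier ones. The fit shares its spread with the steep first window. Without the 0 hour array both changes were called, with adjusted p = 0.00648 for HERPUD1 and 0.024 for DNAJB9, and so were they among only the arrays compared (adjusted p = 7.16e-06 and 0.000895). At 12 to 21 hours against 0 to 9 hours DNAJB9 was not called (-0.32, SE 0.26), and without the 6 hour array it was (-0.62, adjusted p = 0.0362).

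XBP1 encodes the transcription factor that IRE1 activates by splicing. Its probe read 10.85 and 10.76 at 0 and 3 hours, and 9.86 and 9.85 at 6 and 9 hours. It lay between 9.43 and 9.82 from 12 to 33 hours and read 9.08, 9.10, 9.43 and 9.46 in the last 4 arrays. Nearly all of the early fall thus came between 3 and 6 hours. XBP1 fell by 0.95 at 6 and 9 hours (SE 0.12, adjusted p = 2.82e-05), and the last window was 1.06 below the first (-1.06, SE 0.19, adjusted p = 0.000444). The call at 12 to 21 hours (-0.60, SE 0.19, adjusted p = 0.0254) was lost with median scaling (adjusted p = 0.0699), in a fit of only the arrays compared (adjusted p = 0.0975) and without the array of 0, 3 or 21 hours (adjusted p = 0.0757, 0.0977 and 0.0664). The late change (-0.40, SE 0.19, adjusted p = 0.118) was called with median scaling (adjusted p = 0.0331) and among only the arrays compared (adjusted p = 0.00803).

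**Figure D2:**
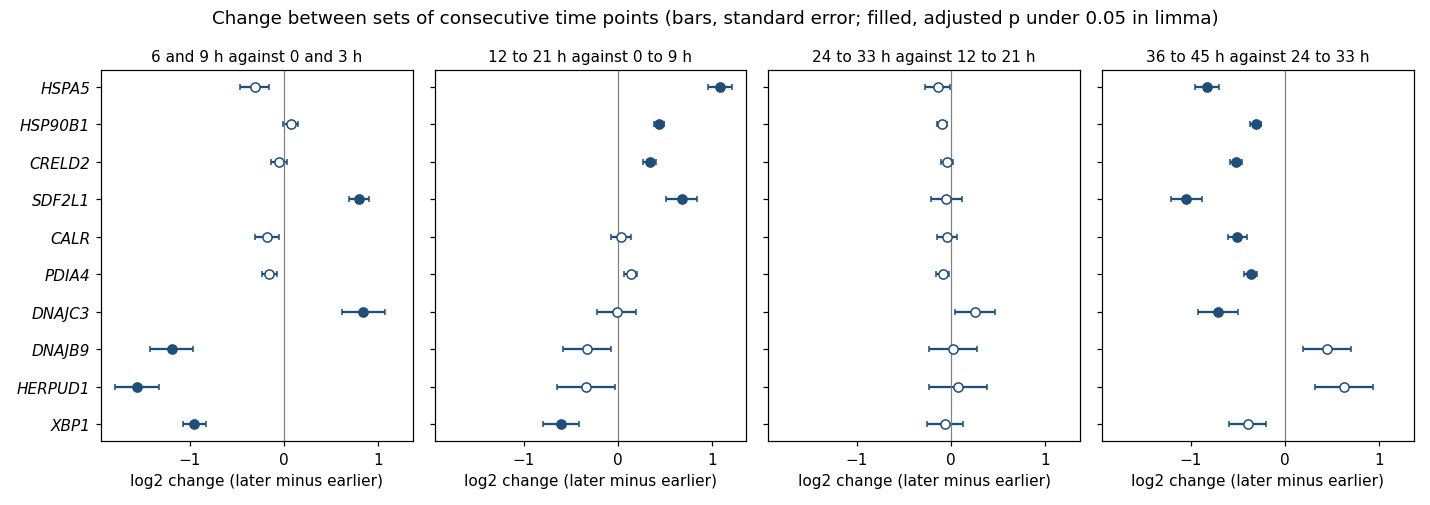
Log2 change (x axis, later minus earlier) of each gene between sets of consecutive time points, with bars for the standard error and filled points for adjusted p under 0.05 in limma. From left to right 5, 5, 0 and 7 genes are filled, and the last panel has filled points only below 0.

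Counted over the 10 genes, 2 were called higher and 3 lower at 6 and 9 hours against 0 and 3 hours, beside 13.2% and 11.5% of all rows. At 12 to 21 hours against 0 to 9 hours 4 were called higher and 1 lower, beside 15.1% and 14.4%. From 12 to 21 to 24 to 33 hours none of the 10 was called in limma, and none had an unadjusted p under 0.05 (the lowest was 0.0793), where 0.0251% of all rows were called in either direction and 4.89% had an unadjusted p under 0.05. At 36 to 45 hours against 24 to 33 hours none was called higher and 7 were called lower, beside 19.3% and 18.7%. The median change of the 10 genes in that comparison was -0.45, and that of all rows was -0.0021. At 36 to 45 hours against 0 to 9 hours none was called higher and 4 were called lower, XBP1, CALR, PDIA4 and CRELD2, beside 16.2% and 15% of all rows. Without the 0 hour array 8 of the 10 were called in that last comparison, beside 36.2% of all rows in either direction. SDF2L1 (-0.58, adjusted p = 0.00391) and DNAJC3 (-0.65, adjusted p = 0.0151) were then also lower, and HERPUD1 (0.80, adjusted p = 0.00266) and DNAJB9 (0.49, adjusted p = 0.0267) higher. Without the 3 hour array SDF2L1 was also called lower (-0.52, adjusted p = 0.0297).

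Median scaling in place of quantile normalization changed the balance of all calls. At 12 to 21 hours it gave 2811 higher and 1030 lower rows, against 1807 and 1720. At 36 to 45 hours against 24 to 33 hours it gave 1719 and 2935, against 2309 and 2233, and 8 of the 10 genes lower. At 36 to 45 against 0 to 9 hours it gave 2794 and 1029, against 1932 and 1798, and 2 of the 10 genes lower. At 6 and 9 hours it gave 1794 and 1007, against 1583 and 1374. At 24 to 33 against 12 to 21 hours it gave 8 and 3, against 0 and 3.

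The steps of these genes came where many rows of the table moved. From 0 to 3, 3 to 6, 9 to 12 and 33 to 36 hours, 641, 896, 880 and 764 of the 11957 rows changed by at least 1.7-fold, and between 41 and 269 did so in each other interval. From 33 to 36 hours 8 of the 10 genes went down, with a median step of -0.35. From 9 to 12 hours 7 went up, with a median step of 0.16. How many of all rows went up or down in these intervals was not counted. The median absolute step from 33 to 36 hours was 0.38 in the 10 genes and 0.25 in all rows. From 9 to 12 hours it was 0.21 and 0.24. The labels and headers name no chip or hybridization date, so a batch of arrays that ran from 12 to 33 hours cannot be told apart from time. In RNA from whole cultures, fewer cells of a type and less RNA per cell cannot be told apart either.

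The courses were also compared by correlation. Over the 16 arrays, which are successive time points and not independent samples, DNAJB9 and HERPUD1 had the highest Pearson r of the 45 pairs (0.949, Spearman rho 0.759). HSPA5 had r of 0.894 with CRELD2 and 0.882 with HSP90B1, and CALR had 0.843 with PDIA4. The lowest r was between SDF2L1 and HERPUD1 (-0.779), and 28 of 45 pairs were positive, with a median of 0.356. XBP1 was most like CALR (r = 0.587) and PDIA4 (0.482), and less like DNAJB9 (r = 0.356, rho -0.182) and HERPUD1 (r = 0.237, rho -0.344), which are also highest at 0 hours. It had r of -0.04 with HSPA5. Both genes hold an ERSE, as do HSP90B1, CALR and CRELD2. Among pairs of these 5 genes r ran from -0.20 (HSP90B1 and XBP1) to 0.894 (HSPA5 and CRELD2). The 2 genes with an ERSE-II, SDF2L1 and HERPUD1, formed the least alike pair. Whether a shared element goes with a shared course was not tested. By likeness to HSPA5, CRELD2 ranked 67 and HSP90B1 102 among the other rows tested. The 5 most alike were PTGS1 (r = 0.951), ACY1L2 (0.948), SMC6L1 (0.946), CAP2 (0.942) and WDR67 (0.942).

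**Figure D3:**
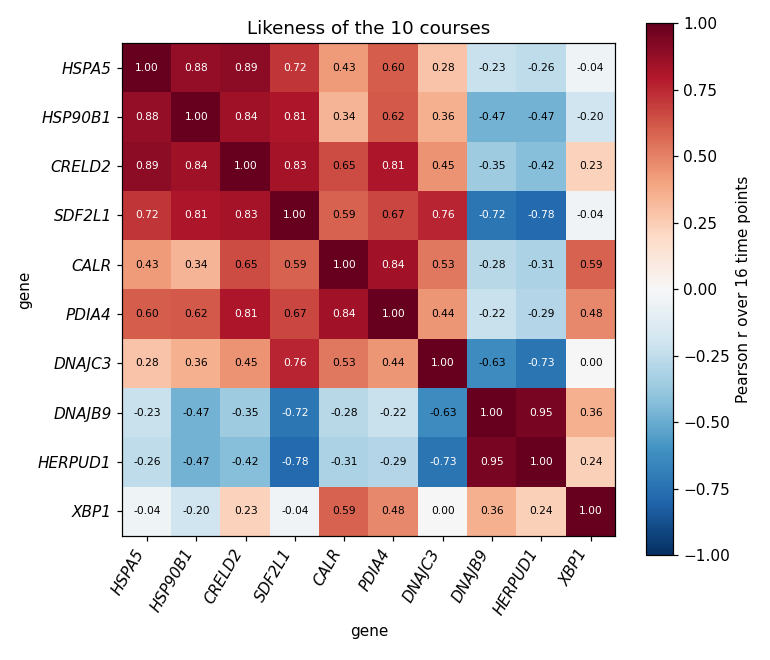
Pearson r between the log2 courses of each pair of genes over 16 time points (colour, from -1 to 1), with both axes listing the 10 genes. HSPA5, HSP90B1, CRELD2 and SDF2L1 form a red block, and DNAJB9 and HERPUD1 have r of 0.95 with each other and negative r with the genes of that block. The block is not set apart, as PDIA4, CALR and DNAJC3 also have positive r with each of its genes. For PDIA4 these run from 0.60 (HSPA5) to 0.81 (CRELD2).

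Other genes of the pathway were read from 5 lists, described by counts and by their median change. The median of all rows was -0.0072 at 6 and 9 hours and -0.0006 at 12 to 21 hours. It was -0.0021 at 36 to 45 against 24 to 33 hours. Of all rows tested, 54.6% varied with time. At 6 and 9 hours 13.2% were called higher and 11.5% lower, and at 12 to 21 hours 15.1% and 14.4%. The shares were 19.3% and 18.7% after 33 hours, and 16.2% and 15% at 36 to 45 against 0 to 9 hours. Whether the lists differ from these shares was not tested. Of 11 sensors and their proteases 8 were tested and 4 varied with time, with a median change of -0.31 at 6 and 9 hours. EIF2AK3, which encodes PERK, was highest at 0 hours (7.90) and lowest at 6 hours (6.18), with a change of -0.93 at 6 and 9 hours (SE 0.26, adjusted p = 0.0135). ATF6 rose at that time (0.54, SE 0.13, adjusted p = 0.00491), the only sensor called higher. It did not pass the test over time (adjusted p = 0.0935). The call of its rise was lost without the 9 hour array and in a fit of only the arrays compared. WFS1, an ER membrane protein of calcium balance, fell by 0.85 at 12 to 21 hours (SE 0.12) and rose by 0.58 at 36 to 45 hours against 24 to 33 hours (SE 0.12). CREB3, a membrane-bound factor cleaved like ATF6, fell by 0.53 at 12 to 21 hours (SE 0.13, adjusted p = 0.00423). ERN1, which encodes IRE1, did not pass the test over time (adjusted p = 0.351).

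Of 29 other ER chaperones and folding enzymes 26 were tested and 15 varied with time. At 6 and 9 hours 6 were called higher and none lower, beside 13.2% and 11.5% of all rows. At 12 to 21 hours 7 were higher and none lower, beside 15.1% and 14.4%. After 33 hours 4 were higher and 9 lower, beside 19.3% and 18.7%. The median change was 0.12, 0.08 and -0.17 in these comparisons. The pair of calls that marked HSPA5 was met by 6 of the 26, beside 8.25% of all rows. These were DNAJB11, PDIA5, TXNDC5, TXNDC12, FKBP14 and MANF (in the file as ARMET). DNAJB11, the BiP cochaperone ERdj3, rose by 0.45 at 12 to 21 hours (SE 0.09) and fell by 0.52 after 33 hours (SE 0.09). FKBP14, an ER prolyl isomerase, rose by 0.56 (SE 0.19) and fell by 1.09 (SE 0.19). HYOU1, an ER chaperone of the HSP70 family that holds an ERSE-II in its window, was not called at 12 to 21 hours (-0.10, SE 0.17) and fell by 0.83 after 33 hours (SE 0.17, adjusted p = 0.000864). CRELD1, the paralogue of CRELD2, went the other way after 33 hours (0.80, SE 0.11). Of the 4 listed genes with an ERSE in their window, PDIA6 passed the test over time (adjusted p = 0.0172), CANX and SERP1 did not (adjusted p = 0.189 and 0.136), and ERO1B was not tested.

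In ER-associated degradation 18 of 23 genes were tested and 8 varied with time, beside 54.6% of all rows. After 33 hours 4 were higher and 1 lower, beside 19.3% and 18.7% of all rows, with a median change of -0.07. A fit of only the arrays compared gave 4 and 5, without a share of all rows here. VCP, the ATPase that pulls proteins from the ER, fell by 0.48 (SE 0.10) after 33 hours in the main fit. SEL1L, the partner of the ligase HRD1, was above background on only 6 arrays and was called in none of the window comparisons. In translocation and N-glycosylation 31 of 32 genes were tested and 25 varied with time. Of the 31 tested, 5 were higher and 15 lower after 33 hours (median change -0.19), beside 19.3% and 18.7% of all rows. At 36 to 45 hours against 0 to 9 hours 1 was higher and 14 lower, beside 16.2% and 15%. At 12 to 21 hours 5 were higher and 9 lower, beside 15.1% and 14.4%. Median scaling turned these counts to 7 higher and 2 lower. Among only the arrays compared 3 were higher and 6 lower, again without a share of all rows here. SEC61A1, the channel subunit of the translocon, was 0.73 lower in the last window than in the first (-0.73, SE 0.13). SEC62, in the file as TLOC1, rose by 1.36 at 12 to 21 hours (SE 0.17). SPCS3, a signal peptidase subunit, fell by 0.58 after 33 hours (SE 0.17, adjusted p = 0.0114).

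Of 10 genes of the PERK arm and ATF4 targets 7 were tested and 6 varied with time, beside 54.6% of all rows. At 6 and 9 hours 6 were lower and none higher, beside 11.5% and 13.2%, with a median change of -0.76. DDIT3, which encodes CHOP, read 11.37, 8.59, 7.66 and 8.07 at 0, 3, 6 and 9 hours, and 8.89 to 9.20 in the last 4 arrays. PPP1R15A, which encodes GADD34, read 12.64, 12.30, 10.82 and 10.80 in the first 4 arrays and 11.17 to 11.58 in the last 4. ASNS, asparagine synthetase, read 12.81, 12.74, 12.52 and 12.26 and then dropped to 10.91 at 12 hours. All 3 were highest at 0 hours, as HERPUD1, DNAJB9 and XBP1 were. The other genes of this list that varied with time differed. CEBPB was also highest at 0 hours, TRIB3 at 3 hours and ATF4 at 45 hours (13.78). At 6 and 9 hours the fall was 2.11 in DDIT3 (SE 0.52, adjusted p = 0.00641) and 1.66 in PPP1R15A (SE 0.13). In a fit of only the arrays compared, 4 of these genes, 1 of the degradation genes and none of the other 3 lists were called at 6 and 9 hours. In that fit 7.38% of all rows were called. Without the 9 hour array 1 folding enzyme was called higher and 2 sensors lower at that time. There were also 1 degradation gene in each direction and 1 translocation gene higher. Without the 0 hour array 3 folding enzymes were called, and without the 6 hour array 4 translocation genes higher and 2 lower. After 33 hours 2 genes of the PERK arm were higher, with 4 when the 0 hour array was left out and 1 when any single array from 24 to 45 hours was. Among only the arrays compared 4 were higher and 1 lower, and median scaling gave 1 higher. The share of all rows is not given here for the fits without 1 array, nor for only the arrays compared after 33 hours. Those counts show only how the calls depend on the fit.

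**Figure D4:**
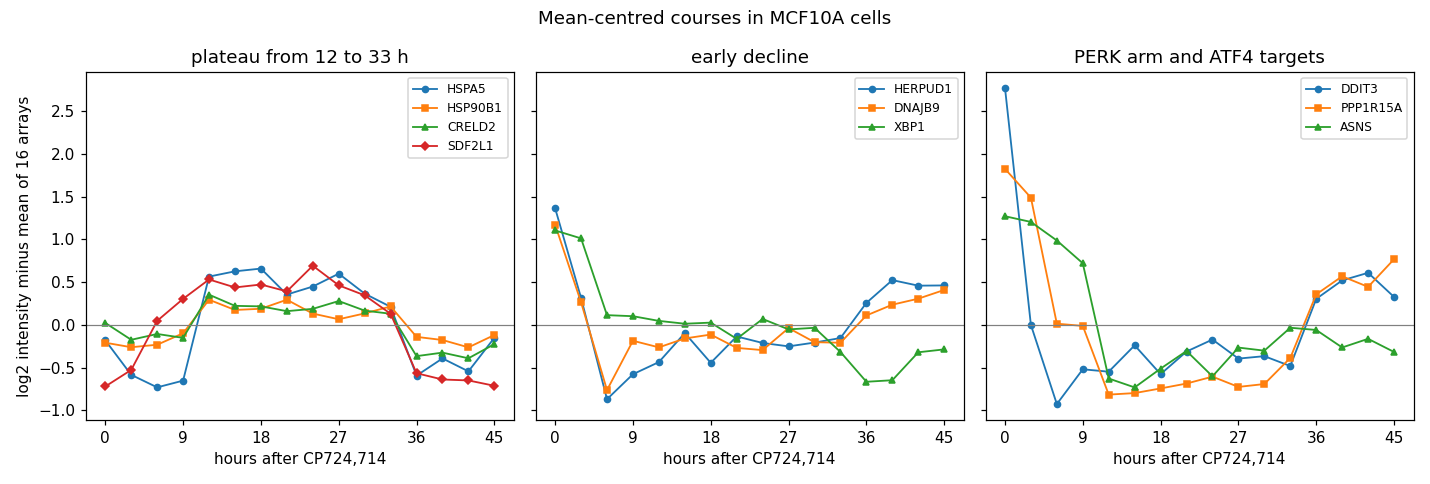
Log2 intensity minus its mean over 16 arrays (y axis) against hours after the inhibitor (x axis), 1 point for each array. The first panel has the 4 genes high from 12 to 33 hours, of which SDF2L1 is already up at 6 and 9 hours. The middle one has HERPUD1, DNAJB9 and XBP1, and the last DDIT3, PPP1R15A and ASNS. The genes of the last 2 panels are highest at 0 hours.

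The cell type was checked by markers. Of 10 mammary epithelial markers 7 were above background on all 16 arrays, while KRT14 was above background on 1 array only. Of these markers 8 were tested and 7 varied with time, beside 54.6% of all rows. Of 9 markers of other cell types 7 were above background on no array. PTPRC was so on 5 arrays, and PECAM1 on 15, with a rise of 0.87 at 12 to 21 hours (SE 0.15, adjusted p = 0.000298) at deposited intensities of 234 to 362. Whether PECAM1 had a part in the rise of HSPA5 at the same time was not tested. Array medians were 210 to 254 and 10325 to 10889 rows were above background on each array.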

How the data were processed

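Bead intensities of 16 Illumina human Ref8v2 arrays were deposited by the authors without normalization between arrays, with a detection p-value for each row and array, deposited by the authors beside the intensity and taken against negative control beads. The summary software is not given in the sources used here. The study's methods state quantile normalization. Here the negative control level (165.8 to 198.6, SD 35.4 to 44.0) was inferred from the detection p-values of the 19092 rows that stand for a single probe. Background was removed by normexp with an offset of 16, followed by quantile normalization and a log2 transform, the scale of every change given. These steps used limma 3.58.1 (R 4.3.3). The number of arrays limits the precision. A row was tested if its detection p was below 0.05 on 3 or more arrays. For time dependence, a natural cubic spline (3 degrees of freedom) was fitted and its terms were tested together by limma's moderated F. Windows of 4 consecutive time points, and pairs for the earliest comparison, were compared with limma's moderated test on all 16 arrays. Adjusted p-values are Benjamini-Hochberg over all 11957 rows, and calls are under 0.05. The tests were tried on simulated data with independent noise around a flat mean, where a change was added to some rows. The real series is a time course without replicates, so that trial does not measure how the tests do on it.

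The 10 genes and the lists were chosen with earlier results of these data known. From each list the 3 genes with the widest range among those that varied with time are named, and 5 rows most like HSPA5, except 1 gene that is not reported here. ATF6, ERN1, ATF4, TRIB3, CEBPB, DNAJB11, PDIA5, TXNDC5, TXNDC12, MANF, CANX, SERP1, PDIA6, ERO1B, PECAM1, PTPRC and KRT14 were named after their values were seen. Rows that combine probes carry averaged detection p-values (among them ATF3 and LAMB3, not tested). Motifs were read from RefSeq windows with Python. As alternatives, background correction was omitted, the offset was raised to 50, and median scaling or cyclic loess replaced quantile normalization. The filter, the intensity trend, the curve and the arrays in the fit were also changed, and each array was left out in turn.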

Additional observations from a re-analysis of the deposited data

Results flagged for a closer look

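In XBP1 the 21 hour array (log2 9.58) stood apart from the other 3 arrays of 12 to 21 hours, at 9.76 to 9.79. Its gap to the nearest was 0.841 of the range of the 4 values, above the Dixon limit for a set of this size. Of the 40 sets of 4 values examined, this was the only one past the limit, and chance passes about 1 set in 20.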

How the results depend on the processing

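Of 1444 values of single genes under the alternatives, 1387 kept their direction and side of the threshold and none reversed a call. Of the counts of genes called, time dependence gave 3 with a straight line in time (main 10, and 16.3% of all rows against 54.6%), 6 and 9 hours against 0 and 3 hours gave 3 with only the arrays compared (main 5, and 7.38% of all rows called), and 36 to 45 against 0 to 9 hours gave 2 with median scaling (main 4, and 32.0% of all rows called). Leaving out 1 array gave 9 to 10 genes with time dependence and 4 to 6 at 12 to 21 hours. At 24 to 33 hours it gave 0, and at 36 to 45 against 24 to 33 hours 7 to 9. At 36 to 45 against 0 to 9 hours it gave 4 to 8. The 8 came without the 0 hour array, where 36.2% of all rows were called. At 6 and 9 hours no range is given, since leaving out 1 of the arrays compared leaves 1 array in a pair. The share of all rows is not given here for the other fits without 1 array. These ranges therefore do not show whether the 10 genes moved apart from the whole table. The cause of these differences was not tested. A straight line cannot follow a course that rises and falls. A fit of only the arrays compared has fewer degrees of freedom. It lost some calls and gained others, such as the late changes of HERPUD1, DNAJB9 and XBP1. No paired analysis was possible because each time point has 1 array. Single arrays, windows of consecutive time points, unnamed chips and dim rows such as DNAJC3 limit these results.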
